A study of Sus scrofa with 60 samples.

Results

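The transcripts described here belong to 36 genes of the cell division cycle in pig liver. They comprise 5 regulators of G1 and its exit (4 G1 cyclins and E2F1) and 9 genes of DNA replication in S phase, together called G1/S here, 21 genes of G2 and mitosis (G2/M), and CDKN1A, which encodes the cyclin-dependent kinase inhibitor p21. The genes were chosen by name from a table of 30335 named genes, in which each symbol had its own entry. All 36 were among the 16210 genes that passed the filter on low counts, and the lowest count of any of them in any library was 10, for CCND2.

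The study asked how nutrition alters the liver in bile duct obstruction of the newborn. Pigs of mixed Landrace and Hampshire sows were delivered preterm by cesarean section, underwent bile duct ligation (BDL, in which the cystic and common bile ducts were tied) or sham surgery on day 1 of life, and all received a jugular catheter. Enteral (ENT) pigs were fed milk replacer formula through an orogastric tube, SLE pigs received parenteral nutrition (PN) with the soybean lipid emulsion Intralipid (IL in the labels), and MLE pigs received PN with the multicomponent emulsion SMOFlipid (SL in the labels). Every pig, ENT pigs included, had PN at first, ENT pigs were gradually weaned from it, and liver was taken after 14 days. Poly(A) RNA was sequenced from 60 pigs, with 12 sham and 10 BDL pigs on ENT (the groups ENT-sham and ENT-BDL), 10 and 11 on SLE (SLE-sham and SLE-BDL), and 9 and 8 on MLE (MLE-sham and MLE-BDL). Each library is 1 pig, so the replicate spread is that between animals, except where the labels leave this in doubt.

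The genes act at successive steps. Cyclins bind cyclin-dependent kinases, D and E cyclins drive the passage from G1 to S phase and release E2F factors, and E2F targets such as PCNA, the MCM helicase, and the enzymes of nucleotide supply copy the genome. FOXM1 and its partners then switch on the B cyclins, the mitotic kinases, and the motors that separate chromosomes, whereas p21 binds cyclin-kinase complexes and PCNA and restrains the cycle. Hepatocytes of the newborn still divide, adult hepatocytes are mostly quiescent but re-enter the cycle after injury or resection, and cholangiocytes proliferate when bile ducts are obstructed. Bulk liver RNA holds all of these cells and blood cells, and in it a smaller number of cells of a type and less RNA per cell cannot be told apart.

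Libraries held 14469788 to 21374161 counted reads (median 17254606), and the 9 hepatocyte markers, such as ALB and APOA1, summed to 68802 to 148666 CPM (counts scaled to a common library total) in a pig. ENT-sham replicate 2 and ENT-BDL replicate 1, which carry opposite surgery labels, nearly matched, with a chi-square per degree of freedom of 1.93 over 14853 genes against 16.52 for the next closest of 1770 pairs. The summed level of cholangiocyte markers was 557 CPM in the library labelled ENT-sham replicate 2, where the other ENT-sham pigs had 62.4 to 96.4, and 540 CPM in ENT-BDL replicate 1, where the other ENT-BDL pigs had 274 to 522. Among the members, CCNB1 was at 9.64 CPM in the former and 10.1 in the latter, and PCNA at 21.4 and 21.5, the lowest of both groups. Comparisons of ENT pigs were therefore repeated without both libraries. Replicates 9 and 10 of SLE-sham are given 1 shared pig identifier in the labels. They were counted as separate pigs, and no fit left out both. The labels also hold an identifier number with 8 values, whose meaning is not given, and pigs of different groups with the same number were more alike (mean correlation of deviations from the group mean 0.133 over 177 pairs) than pigs with different numbers (-0.018 over 1318 pairs). Where the identifier number as a block changed a member's call, this is given beside the result.

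A few pigs stood at the edge of their group across most of these genes. SLE-BDL replicate 7 was the lowest of its 11 pigs in all 21 G2/M genes and all 9 S-phase genes, and the lowest of all 60 pigs in 23 of the 36 genes. Its hepatocyte marker sum, 148666 CPM, was the highest of the 60 pigs, and its endothelial (282 CPM) and erythroid (22.2 CPM) sums were each the second lowest. ENT-sham replicate 12 was the lowest of its group in 20 G2/M genes, ENT-BDL replicate 1 in 19, and MLE-sham replicate 4 in 14. At the other end, SLE-sham replicate 1 was the highest of its group in 19 G2/M genes, MLE-BDL replicate 1 in 18 and in all 9 S-phase genes, and ENT-BDL replicate 4 in 12. Counts that rest on these pigs are given with and without them.

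Levels are CPM scaled by edgeR's TMM factors, and the 6 medians of a gene are given by diet, first ENT, then SLE, then MLE, with sham before BDL on each. Among the G1 regulators, CCND1, which encodes the D cyclin that answers growth signals in hepatocytes, had medians of 80.8, 69.8, 88.9, 85.1, 80.4, and 83.6 CPM. CCND2, another D cyclin, was the least counted of the 36, with medians of 2.26, 2.05, 1.41, 2.01, 1.47, and 1.37 CPM. CCNE1, an E cyclin that partners CDK2, had medians of 3.25, 3.42, 3.53, 3.21, 4, and 4.25 CPM. The medians of CCNE2, the second E cyclin, were 5.05, 5.69, 4.13, 4.19, 3.93, and 4.35 CPM. E2F1, the transcription factor that opens the S-phase program, had medians of 15.5, 15.8, 16.4, 15.9, 14.8, and 17.2 CPM. Per kilobase of gene length, CCND1 (18.9 CPM per kb over all pigs) stood far above CCND2 (1.4), CCNE1 (1.28), and CCNE2 (1.02), which were the lowest of the set.

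The S-phase genes held 5 of the 7 highest levels per kilobase. PCNA, the sliding clamp of the DNA polymerases, had medians of 31.7, 37.5, 35.5, 36.7, 32.9, and 38.4 CPM and the highest level per kilobase of the 36 (30.7 CPM per kb). MCM2 to MCM7 encode the 6 subunits of the ring-shaped replicative helicase. Medians of MCM2 were 30.2, 31.1, 36.6, 33.4, 28.4, and 36.7 CPM, and those of MCM3 were 26.8, 25.8, 27.7, 28.5, 23.2, and 31.7 CPM. MCM4 had medians of 43.6, 43.6, 42.2, 44.1, 36.6, and 50.6 CPM, and MCM5 had medians of 24.3, 30.9, 25.2, 26, 22.3, and 32.6 CPM. MCM6, whose level was lowest in ENT-sham, had medians of 37.6, 49.3, 50.8, 46.2, 47.4, and 60.2 CPM. MCM7 was the most abundant subunit per kilobase (23.3 CPM per kb) and had medians of 79.4, 76.6, 75, 74.4, 77.8, and 75.8 CPM. RRM2, the small subunit of ribonucleotide reductase, which makes deoxynucleotides, had medians of 88.4, 63.4, 68.4, 58.2, 79.5, and 64.5 CPM. TYMS, thymidylate synthase, had medians of 37, 44.8, 47.5, 38.1, 37.7, and 42.7 CPM and spanned 7.4-fold from the lowest to the highest pig, against 2.44-fold for PCNA.

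Of the G2/M genes, MKI67, whose product is the Ki-67 antigen used to mark cycling cells, had medians of 68.8, 110, 79.4, 87.1, 72.4, and 104 CPM. TOP2A, the topoisomerase that untangles sister chromatids, had medians of 50.9, 68.6, 43.9, 48.1, 40.4, and 58.1 CPM. CCNA2, the A cyclin of S phase and G2, had medians of 12.4, 16, 10.7, 12.2, 11.6, and 12.7 CPM. The B cyclins start mitosis with CDK1. Medians were 14, 21.3, 14.2, 13.7, 13.2, and 19.2 CPM for CCNB1, and 7.72, 10.2, 8.1, 8.15, 5.71, and 8.21 CPM for CCNB2. CDK1 itself had medians of 14.1, 18.4, 13.9, 14.1, 12.4, and 17.4 CPM. FOXM1, the transcription factor of the G2/M program, had medians of 6.94, 8.03, 5.73, 6.78, 5.13, and 7.55 CPM. The mitotic kinases had their highest medians in ENT-BDL or MLE-BDL. AURKA, the kinase of the spindle poles, had medians of 7.97, 10.1, 6.73, 6.86, 6.37, and 9.25 CPM, and AURKB, its relative at the centromere, had medians of 7.45, 8.45, 7.59, 7.86, 6.87, and 9.26 CPM. PLK1, which acts from mitotic entry to cytokinesis, had medians of 11.6, 16.9, 9.76, 12.3, 10.4, and 14.1 CPM.

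The spindle checkpoint kinases BUB1 and BUB1B hold anaphase until chromosomes are attached. BUB1 had medians of 9.63, 13.3, 8.68, 10.2, 7.86, and 11.4 CPM, and BUB1B had medians of 12.3, 15.4, 10.4, 11.3, 9.99, and 13 CPM. CDC20 and UBE2C serve the anaphase-promoting complex, which ends mitosis. Medians of CDC20 were 15.8, 18.6, 13.8, 15.3, 16.1, and 20 CPM, and those of UBE2C were 9.6, 11.3, 9.06, 8.92, 10.2, and 11.3 CPM. Kinesin motors build the spindle and the cleavage furrow. KIF11 had medians of 18.9, 23.8, 16.8, 19.3, 15.5, and 20.8 CPM, KIF20A had medians of 19.6, 23.9, 14.8, 17.1, 15.9, and 19.4 CPM, and KIF23 had medians of 8.25, 11.5, 7.22, 8.57, 7.81, and 10.6 CPM. TPX2 and NUSAP1 bind spindle microtubules and CENPF binds the kinetochore. TPX2 had medians of 33.4, 40.7, 29, 29.7, 31.4, and 34.7 CPM, NUSAP1 had medians of 29.9, 33.2, 26.4, 24.8, 25.1, and 28 CPM, and CENPF had medians of 31.5, 36.5, 21.6, 23.7, 19.8, and 27.1 CPM. BIRC5, which encodes survivin of the chromosomal passenger complex, had medians of 15.9, 21.3, 13.9, 11.2, 11.5, and 17 CPM. All 21 of these genes had a higher median in ENT-BDL than in ENT-sham and in MLE-BDL than in MLE-sham. CDKN1A had medians of 20.7, 18.7, 74.9, 54.2, 58.7, and 51.7 CPM, with both ENT groups below all PN groups, and the widest spread of the set, 14.3-fold from the lowest to the highest pig.

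**Figure D1:**
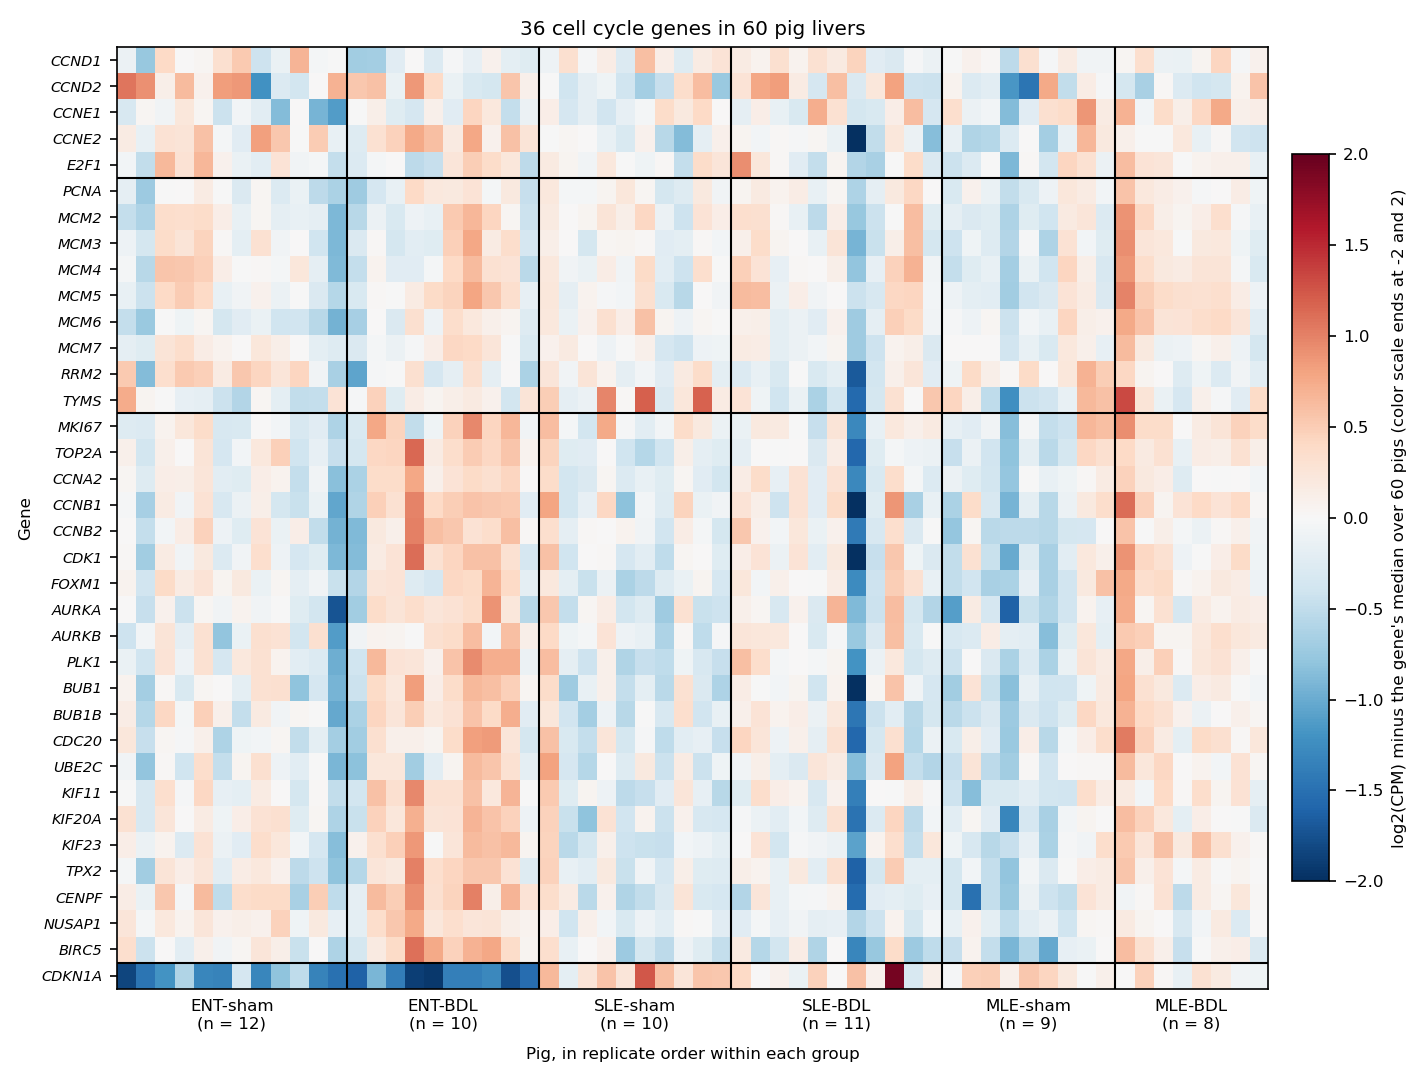
Heat map of the 36 genes (rows, by role) in the 60 pigs (columns, by group), coloured by log2 CPM minus the median of all pigs for that gene (red high, blue low). The G2/M block is highest in ENT-BDL and MLE-BDL, SLE-BDL replicate 7 forms a column of low values, and CDKN1A is low in all 22 ENT pigs.

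In ENT pigs, BDL was accompanied by higher transcript levels of mitotic genes. Of the 21 G2/M genes 11 rose and 0 fell at an adjusted p under 0.05 (edgeR quasi-likelihood test, Benjamini-Hochberg over 16210 genes), whereas of the 14 G1/S genes only MCM6 rose. Among all tested genes 8.89% were higher and 8.53% were lower in ENT-BDL. All 21 G2/M genes lay above 0, with a median log2 fold change of 0.43 against 0.01 for all tested genes, and the S-phase genes had a median of 0.12. DESeq2 on the same pigs also called 12 genes, of which 11 rose and CCND1 fell. Of the 36 genes 20 had an unadjusted p under 0.05.

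MKI67 (gene 102164100, chr14:137266622-137296312 on the minus strand of Sscrofa11.1) ranged from 52.9 to 105 CPM with a median of 68.8 in ENT-sham and from 57.3 to 158 CPM with a median of 110 in ENT-BDL. The groups overlapped, although 6 of the 10 ENT-BDL pigs lay above every ENT-sham pig. The log2 fold change was 0.47 ± 0.16 (SE, edgeR adjusted p = 0.0385), and MKI67 passed in only 10 of the 22 fits that left out 1 ENT pig. CCNB1 ranged from 7.38 to 18.5 CPM with a median of 14 in ENT-sham and from 10.1 to 30.4 CPM with a median of 21.3 in ENT-BDL. It had the largest rise of the set, a log2 fold change of 0.58 ± 0.20 (SE, edgeR adjusted p = 0.0312), and was higher in ENT-BDL within 6 of 6 identifier numbers. BIRC5 (gene 397266, chr12:3747276-3755214, minus strand) ranged from 10.4 to 20.1 CPM with a median of 15.9 in ENT-sham and from 12.4 to 34.2 CPM with a median of 21.3 in ENT-BDL. Of the ENT-BDL pigs 7 lay above every ENT-sham pig, and the log2 fold change was 0.54 ± 0.16 (SE, edgeR adjusted p = 0.0101). BUB1, at 5.37 to 12.9 CPM with a median of 9.63 in ENT-sham and 7.62 to 18.3 CPM with a median of 13.3 in ENT-BDL, had a log2 fold change of 0.52 ± 0.18 (SE, edgeR adjusted p = 0.0384).

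The other G2/M genes that rose were PLK1, KIF23, TOP2A, CCNB2, KIF11, TPX2, and CCNA2, with log2 fold changes of 0.36 to 0.48. With the ENT groups alone CCNA2 (edgeR adjusted p = 0.0703), TPX2 (0.0753), and CCNB2 (0.0939) did not pass. Of the 22 fits that left out 1 ENT pig, CCNA2 and TPX2 each passed in 8 and CCNB2 in 10. CCNA2 also missed the threshold by DESeq2 (adjusted p = 0.0506). KIF23 (gene 100522116, chr1:167239973-167281250, plus strand), a motor of cytokinesis, was above the ENT-sham median in all 10 ENT-BDL pigs. KIF23 and BIRC5 passed in each of the 60 fits that left out 1 pig. The G2/M genes that did not pass lay between 0.14 and 0.46 on the log2 scale, CDK1 (adjusted p = 0.0682), AURKA (0.0885), and CDC20 (0.0872) among them in the edgeR test. CDK1 passed with the identifier number as a block (0.47, adjusted p = 0.0425) and without both near-matching libraries (adjusted p = 0.0367), and AURKA passed with both changes (adjusted p = 0.0358). With the block 13 members rose and 2, CCND1 and CDKN1A, fell.

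The S-phase genes did not move together. MCM6 (gene 110257107, chr15:15923638-15978587, plus strand) ranged from 25.1 to 49.9 CPM with a median of 37.6 in ENT-sham and from 30.5 to 61.4 CPM with a median of 49.3 in ENT-BDL, a log2 fold change of 0.33 ± 0.12 (SE, edgeR adjusted p = 0.0416), and it passed in 10 of the 22 fits that left out 1 ENT pig and not with the ENT groups alone (adjusted p = 0.0705). PCNA (gene 692192, chr17:14137746-14142584, minus strand) ranged from 21.4 to 39.5 CPM with a median of 31.7 in ENT-sham and from 21.5 to 46.5 CPM with a median of 37.5 in ENT-BDL, and its log2 fold change of 0.18 ± 0.11 did not pass (adjusted p = 0.265). RRM2 lay in the opposite direction, at 37.2 to 99 CPM with a median of 88.4 in ENT-sham against 32.6 to 84.8 CPM with a median of 63.4 in ENT-BDL, and did not pass (log2 fold change -0.36 ± 0.15, SE, edgeR adjusted p = 0.0872). CCND1 (gene 100738589, chr2:3621242-3633380, minus strand) ranged from 47.7 to 130 CPM with a median of 80.8 in ENT-sham and from 50 to 85.4 CPM with a median of 69.8 in ENT-BDL, with a log2 fold change of -0.31 ± 0.12 that missed the threshold (adjusted p = 0.0546). It passed with the identifier number as a block (-0.29, adjusted p = 0.0465) and without both near-matching libraries (-0.33, adjusted p = 0.0272). CDKN1A was at -0.41 ± 0.18 on the log2 scale (adjusted p = 0.111), and passed with the identifier number as a block (-0.47, adjusted p = 0.0415).

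The count of members that rose in ENT pigs rested on single animals. Without ENT-BDL replicate 4 it was 4 and CCND1 fell, without ENT-sham replicate 12 it was 5 and RRM2 fell, and without ENT-BDL replicate 1 it was 15, while the G2/M median stayed at 0.34, 0.38, and 0.49. Leaving out ENT-sham replicate 11 or ENT-BDL replicate 9 left 6 genes past the threshold, and leaving out ENT-sham replicate 10 or ENT-BDL replicate 2, 7, or 8 left 7. Without both near-matching libraries 14 members passed. No member passed with a fold above 2, as 3.39% of tested genes did.

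**Figure D2:**
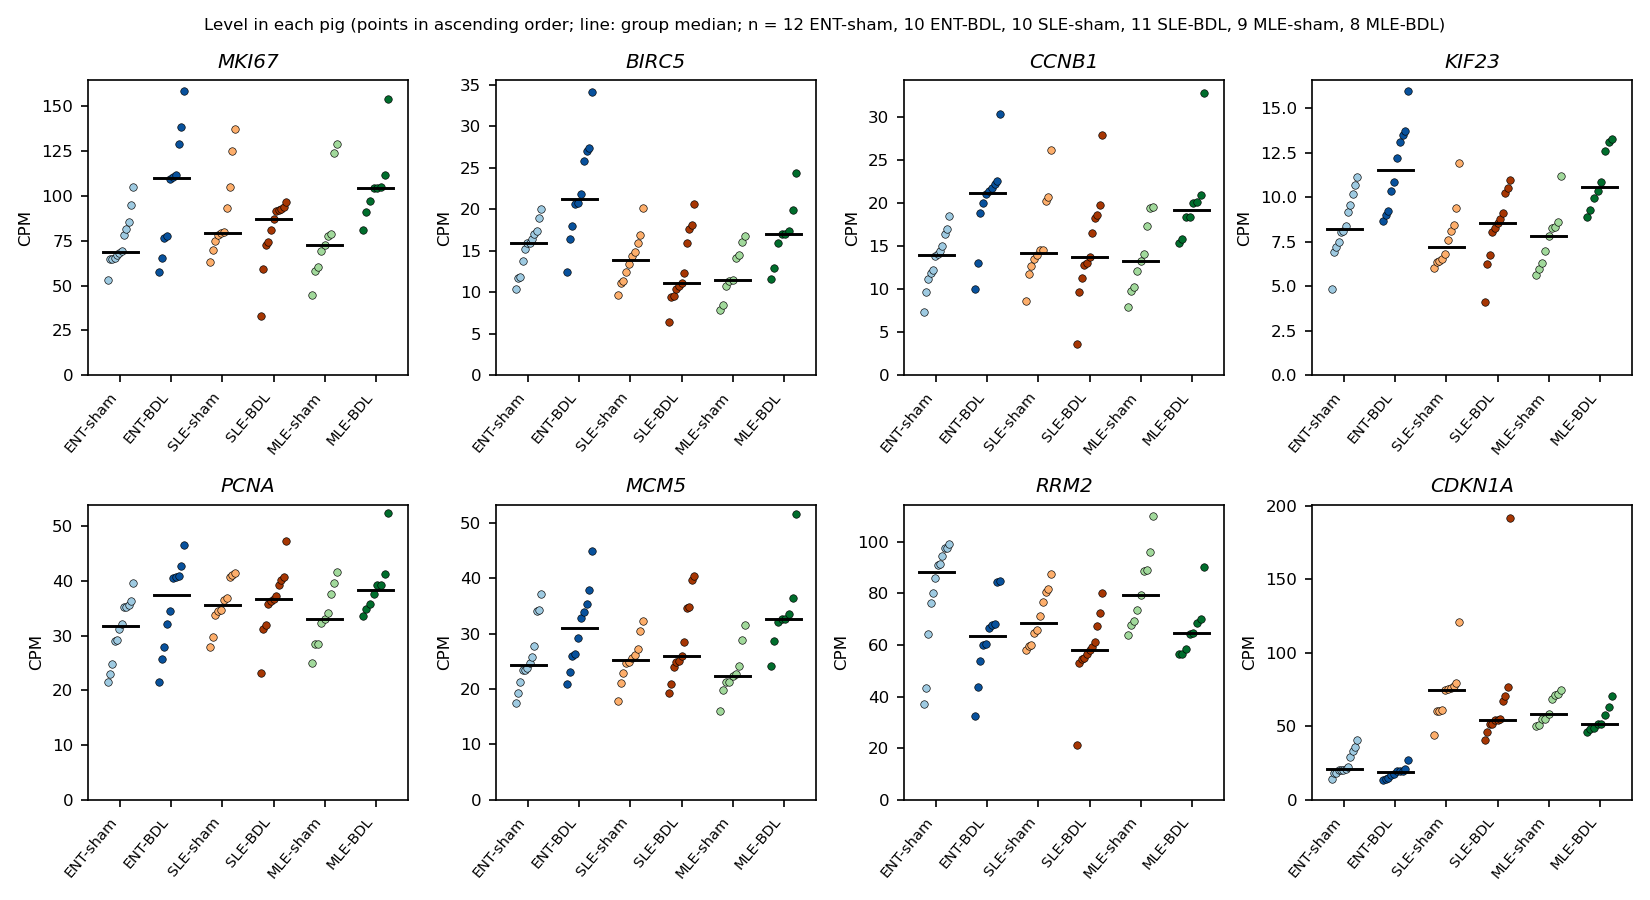
Normalized level in CPM (vertical axes, from 0) of 8 of the genes in every pig of the 6 groups, with a line at each group median. MKI67, BIRC5, CCNB1, and KIF23 overlap between BDL and sham on every diet, and CDKN1A in the 38 PN pigs (40.9 to 192 CPM) lies above the 22 ENT pigs (13.4 to 40.4 CPM).

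In MLE pigs the G2/M genes lay as far from sham as in ENT pigs, with a median log2 fold change of 0.43 and all 21 above 0, but only 4 passed, in groups of 8 and 9. With MCM5, 5 of the 36 genes rose and 0 fell (edgeR, 22 genes at an unadjusted p under 0.05, and 4 rose and 0 fell by DESeq2). Over all tested genes 7.85% were higher and 6.58% lower in MLE-BDL, and 3.78% were also past a fold of 2, none of them a member. The S-phase genes had a median of 0.35.

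AURKA ranged from 2.71 to 9.36 CPM with a median of 6.37 in MLE-sham and from 6.64 to 14 CPM with a median of 9.25 in MLE-BDL, and rose by a log2 fold change of 0.59 ± 0.21 (SE, edgeR adjusted p = 0.0445). KIF23, at 5.64 to 11.2 CPM with a median of 7.81 in MLE-sham and 8.89 to 13.3 CPM with a median of 10.6 in MLE-BDL, had a log2 fold change of 0.52 ± 0.15 (SE, edgeR adjusted p = 0.0124). FOXM1 was at 4.29 to 10 CPM with a median of 5.13 in MLE-sham and 6.24 to 11.3 CPM with a median of 7.55 in MLE-BDL, a log2 fold change of 0.47 ± 0.17 (SE, edgeR adjusted p = 0.0497). The ranges of each of these genes overlapped between the groups. MCM5 (gene 100624915, on an unplaced scaffold) ranged from 16 to 31.5 CPM with a median of 22.3 in MLE-sham and from 24.1 to 51.5 CPM with a median of 32.6 in MLE-BDL, a log2 fold change of 0.55 ± 0.15 (SE, edgeR adjusted p = 0.00789). AURKB also rose, by 0.46 on the log2 scale, but not with the identifier number as a block (0.43, adjusted p = 0.0551), with which CCNB2 passed (adjusted p = 0.0473, against 0.0627 without it). With the block and both near-matching libraries left out BIRC5 also passed (adjusted p = 0.0492). KIF23 and MCM5 passed in every fit that left out 1 pig, whereas AURKA and AURKB passed in 5 and FOXM1 in 3 of the 17 fits that left out an MLE pig. KIF23 and MCM5 were higher in MLE-BDL within 3 of 4 identifier numbers, and AURKA was within 4 of 4.

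MKI67 did not pass in MLE pigs (log2 fold change 0.42 ± 0.19, SE, edgeR adjusted p = 0.125), at 45 to 129 CPM with a median of 72.4 in MLE-sham and 81.2 to 154 CPM with a median of 104 in MLE-BDL. PCNA (0.23 ± 0.12, adjusted p = 0.215), CCND1 (0.09 ± 0.13, adjusted p = 0.709), and CDKN1A (-0.18 ± 0.20, adjusted p = 0.623) did not pass either. RRM2 again lay below sham, at -0.31 on the log2 scale, without passing (adjusted p = 0.227). Leaving out MLE-BDL replicate 1, the highest pig in most of these genes, left KIF23 and MCM5 as the members that rose, with a G2/M median of 0.36, and leaving out MLE-sham replicate 4 also left 2. Between 2 and 3 genes passed without MLE-sham replicate 1, 3, 5, or 6 or MLE-BDL replicate 2, 3, 5, 6, or 7, and 8 passed without MLE-BDL replicate 8.

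In SLE pigs none of the 36 genes passed (edgeR and DESeq2, 1 gene, TYMS, at an unadjusted p under 0.05), where 2.97% of all tested genes were higher and 1.57% lower in SLE-BDL, and 1.49% were also past a fold of 2. The G2/M genes lay between -0.19 and 0.22 on the log2 scale, with a median of 0.02 and 13 of 21 above 0. MKI67 ranged from 63 to 137 CPM with a median of 79.4 in SLE-sham and from 33.3 to 96.8 CPM with a median of 87.1 in SLE-BDL, a log2 fold change of -0.19 ± 0.17 (SE, edgeR adjusted p = 0.605). The group ranges overlapped, with 3 SLE-sham pigs above every SLE-BDL pig and 2 SLE-BDL pigs below every SLE-sham pig, and SLE-BDL replicate 7 set the lower end. KIF23 was at 6.02 to 11.9 CPM with a median of 7.22 in SLE-sham and 4.14 to 11 CPM with a median of 8.57 in SLE-BDL. TYMS ranged from 34.1 to 94.8 CPM with a median of 47.5 in SLE-sham and from 14.1 to 60.3 CPM with a median of 38.1 in SLE-BDL. Its log2 fold change of -0.60 ± 0.21 missed the threshold (adjusted p = 0.0874) and passed with the identifier number as a block (-0.68) and without SLE-BDL replicate 11. RRM2 was at -0.28 (adjusted p = 0.322), PCNA at 0.03, CCND1 at -0.02, and CDKN1A at -0.08 on the log2 scale. Without SLE-BDL replicate 7 the G2/M median was 0.10, without SLE-sham replicate 1 it was 0.11, and still no member passed.

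**Figure D3:**
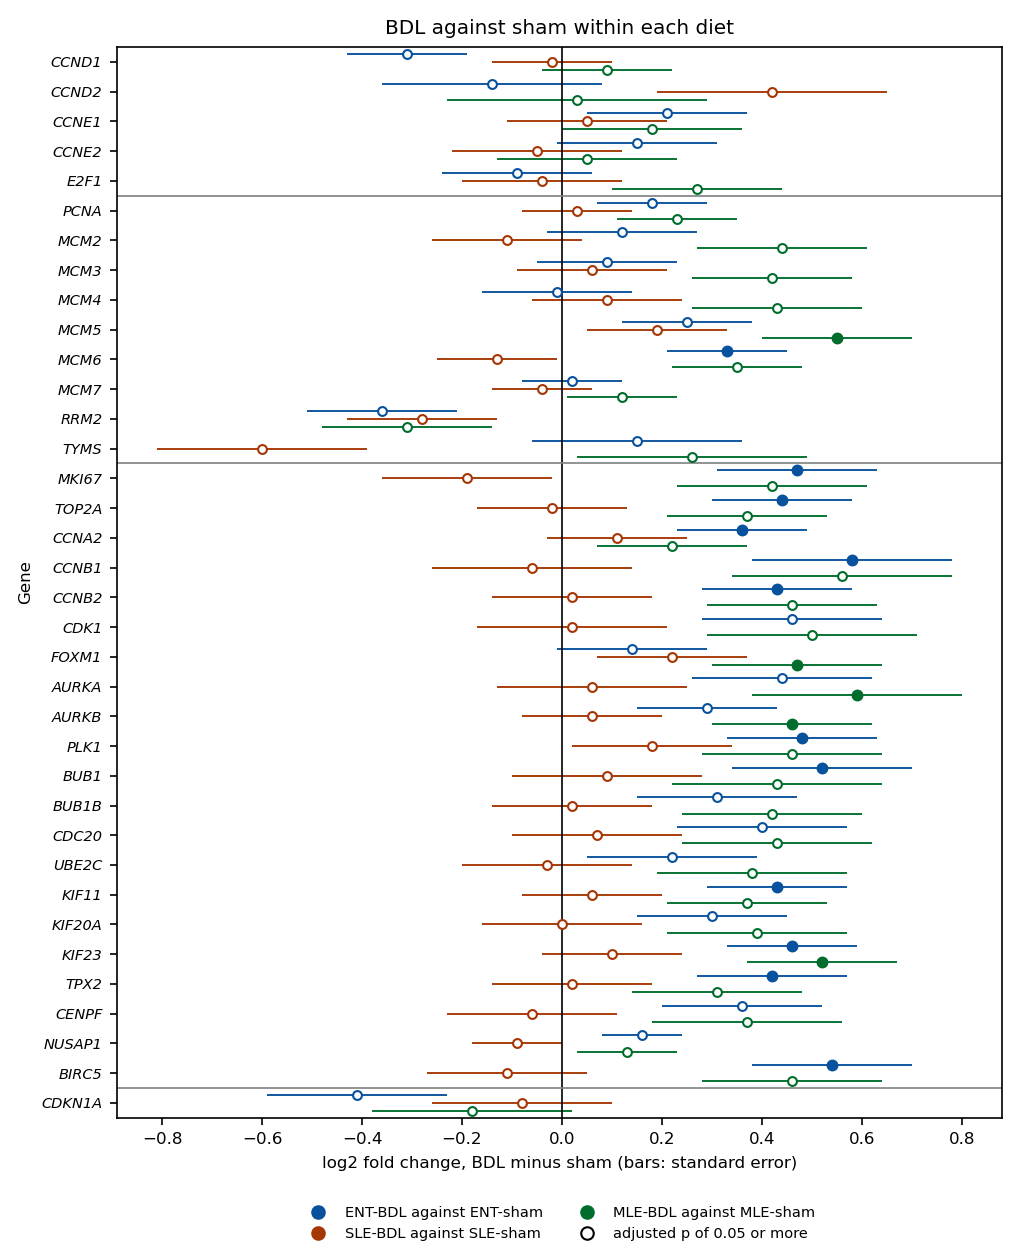
Log2 fold change of BDL against sham (horizontal axis, with SE) for each of the 36 genes on the 3 diets, with filled points where the adjusted p was under 0.05. The G2/M genes lie right of 0 in ENT pigs (12 members filled in all) and MLE pigs (5 filled) and around 0 in SLE pigs (none filled).

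The difference between diets in the response to BDL was tested itself, as an interaction, and no member passed. Between SLE and ENT pigs the G2/M genes had a median difference in log2 fold change of -0.37, with 20 of 21 below 0, and 7 of the 36 members had an unadjusted p under 0.05 (edgeR, 0 adjusted, and 0 by DESeq2), where 2.33% of all tested genes passed. BIRC5 differed by -0.66 ± 0.22 (SE, edgeR adjusted p = 0.107) and MKI67 by -0.65 ± 0.23 (SE, edgeR adjusted p = 0.13). With the identifier number as a block, BIRC5 (-0.79, adjusted p = 0.0336) and TYMS (-0.78, adjusted p = 0.0443) passed. Between MLE and SLE pigs the G2/M median was 0.40 with all 21 above 0 and 7 members at an unadjusted p under 0.05, where 0.265% of all genes passed. TYMS passed there with the block only (1.03, adjusted p = 0.0469, against 0.86 and adjusted p = 0.305 without it). Between MLE and ENT pigs the G2/M median was 0.01, 1 member, CCND1, had an unadjusted p under 0.05, and 0.0617% of all genes passed. The absence of calls in SLE pigs is therefore not shown to differ from the other diets for any single member without the block.

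Within a pig, the G2/M and S-phase genes were compared as the median of each list, taken as log2 CPM minus the median of all pigs for each gene. The G2/M median was -0.05 in ENT-sham and 0.365 in ENT-BDL, -0.225 in SLE-sham and -0.12 in SLE-BDL, and -0.24 in MLE-sham and 0.14 in MLE-BDL, each the median over the pigs of a group. The S-phase median was -0.065 in ENT-sham and 0.025 in ENT-BDL, 0.015 and -0.01 in the SLE groups, and -0.14 and 0.145 in the MLE groups. Subtracting the S-phase from the G2/M median left 0.32 in ENT-BDL (-0.03 to 0.63) and -0.01 in ENT-sham (-0.36 to 0.2), 0.005 in MLE-BDL (-0.27 to 0.22) and -0.17 in MLE-sham (-0.47 to 0.32), and -0.05 in SLE-BDL (-0.72 to 0.14) and -0.235 in SLE-sham (-0.52 to 0.37). The median was higher in BDL than in sham pigs on each diet, and the ranges overlapped. In 9 of 10 ENT-BDL pigs the G2/M median was the higher, against 4 of 8 in MLE-BDL and 5 of 11 in SLE-BDL. Among sham pigs it was the higher in 6 of 12 on ENT, 3 of 10 on SLE, and 2 of 9 on MLE. These are descriptions, with no test.

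**Figure D4:**
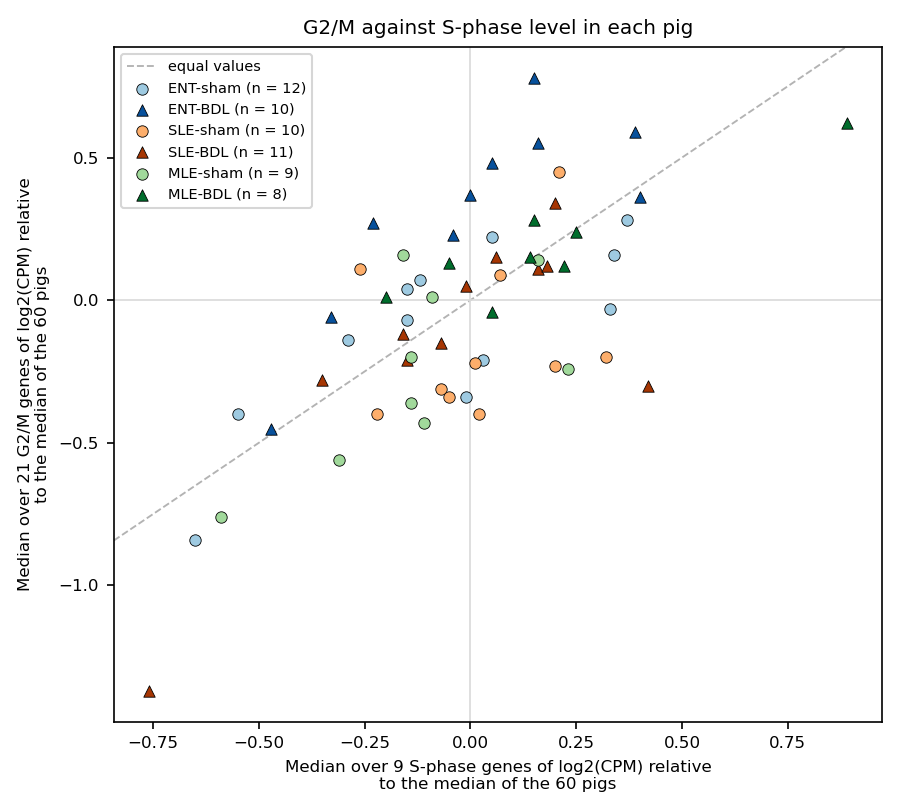
Median log2 CPM (each gene minus its median over all pigs) of the 9 S-phase genes (horizontal) and of the 21 G2/M genes (vertical) in each pig, coloured by diet, with surgery by symbol. Most ENT-BDL pigs lie above the line of equality, and SLE-BDL replicate 7 lies alone at -0.76 and -1.37.

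The comparison of PN with enteral feeding addresses the diet itself. CDKN1A (gene 100152215, chr7:32354776-32363771, plus strand) was the member that differed most. It ranged from 14.3 to 40.4 CPM with a median of 20.7 in ENT-sham, from 44.4 to 121 CPM with a median of 74.9 in SLE-sham, and from 50.5 to 74.7 CPM with a median of 58.7 in MLE-sham. After BDL it ranged from 13.4 to 27.2 CPM with a median of 18.7 in ENT-BDL, from 40.9 to 192 CPM with a median of 54.2 in SLE-BDL, and from 46.4 to 70.6 CPM with a median of 51.7 in MLE-BDL. The lowest of the 38 PN pigs, at 40.9 CPM, was above the highest of the 22 ENT pigs, at 40.4 CPM, a separation that 13 genes (0.0802%) of the 16210 showed. CDKN1A was higher in SLE-sham than in ENT-sham by a log2 fold change of 1.57 ± 0.18 (2.98-fold, edgeR adjusted p = 7.76e-10) and in MLE-sham by 1.33 ± 0.18 (2.52-fold, edgeR adjusted p = 1.65e-07). In the BDL groups it was higher in SLE than in ENT by 1.91 ± 0.19 (3.75-fold, edgeR adjusted p = 1.05e-10) and in MLE by 1.57 ± 0.20 (2.97-fold, edgeR adjusted p = 4.47e-08). The 4 comparisons share the ENT groups in pairs. CDKN1A passed in each under every alternative and with any pig left out, and was the only member past a fold of 2. With the identifier number as a block its log2 fold changes were 1.43, 1.09, 1.83, and 1.33, and it was higher within 4 of 4, 2 of 2, 5 of 5, and 3 of 3 identifier numbers. The highest pig, SLE-BDL replicate 9 at 192 CPM, raised the value of its group, which was 1.62 on the log2 scale without it.

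Among sham pigs, the SLE diet was also accompanied by rises in TYMS and MCM6 and a fall in NUSAP1, so that 3 members rose and 1 fell, where 13.9% of tested genes were higher, 13.6% lower, and 5.24% past a fold of 2 as well. Both counts lay below the background, and the values below are those of single genes and no result about the 36. CDKN1A's lack of overlap was shared by 1.69% of genes there. MCM6 ranged from 44.3 to 72.8 CPM with a median of 50.8 in SLE-sham, against 25.1 to 49.9 CPM with a median of 37.6 in ENT-sham, a log2 fold change of 0.46 ± 0.12 (SE, edgeR adjusted p = 0.00172). TYMS, at 34.1 to 94.8 CPM with a median of 47.5 in SLE-sham and 27.8 to 69.5 CPM with a median of 37 in ENT-sham, was higher by 0.54 ± 0.20 (SE, edgeR adjusted p = 0.0415). NUSAP1, at 21.1 to 30.4 CPM with a median of 26.4 in SLE-sham and 24.9 to 38.2 CPM with a median of 29.9 in ENT-sham, fell by 0.22 on the log2 scale (adjusted p = 0.0408, or 0.172 with the identifier number as a block). The ranges of all 3 overlapped. MKI67 (0.27 ± 0.16, adjusted p = 0.221), PCNA (0.20 ± 0.11, adjusted p = 0.179), and CCND1 (0.03 ± 0.12, adjusted p = 0.893) did not pass in edgeR. The G2/M median was -0.05. Only 2 members passed without ENT-sham replicate 5 or 11, and CCNE2 was lower without both near-matching libraries (-0.44, adjusted p = 0.0325). Without ENT-sham replicate 12, 3 members rose and 2 fell, and without SLE-sham replicate 1, 2 rose and 1 fell.

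In MLE-sham against ENT-sham 2 members rose and 2 fell, with 10.7% of tested genes higher, 10.4% lower, and 3.71% past a fold of 2, and 1.34% without overlap, so that these counts too lay below the background. CDKN1A and MCM6 rose, MCM6 by a log2 fold change of 0.33 ± 0.12 (SE, edgeR adjusted p = 0.0389), and it lay at 36 to 64.8 CPM with a median of 47.4 in MLE-sham. CENPF, at 9.36 to 31.9 CPM with a median of 19.8 in MLE-sham and 16.8 to 41 CPM with a median of 31.5 in ENT-sham, was lower by a log2 fold change of -0.48 ± 0.17 (SE, edgeR adjusted p = 0.0368). NUSAP1 was at 19.6 to 29.5 CPM with a median of 25.1 in MLE-sham, a log2 fold change of -0.28 ± 0.09 (SE, edgeR adjusted p = 0.0173). With the identifier number as a block CDKN1A alone passed, MCM6 missed the threshold without both near-matching libraries (adjusted p = 0.0575), and 2 members passed without ENT-sham replicate 9 or 11 or MLE-sham replicate 3 or 7. Without ENT-sham replicate 12, 1 member rose and 2 fell, and without MLE-sham replicate 4, 3 rose and 1 fell. MKI67 (0.08 ± 0.17, adjusted p = 0.77), PCNA (0.10 ± 0.11, adjusted p = 0.566), and CCND1 (-0.09 ± 0.12, adjusted p = 0.656) did not pass.

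After BDL the SLE and ENT livers differed in mitotic genes. The same ENT-BDL pigs entered the comparison of BDL with sham in ENT pigs, so these results are not independent. Of the 21 G2/M genes 9 fell and 0 rose in SLE-BDL, all 21 lay below 0, and their median log2 fold change was -0.42, against -0.07 for the S-phase genes, of which none passed. Of the 36 members 10 fell and 2 rose, where 10.4% of tested genes were higher, 9.17% lower, and 3.13% past a fold of 2, and 0.771% did not overlap. BIRC5 ranged from 6.47 to 20.7 CPM with a median of 11.2 in SLE-BDL, below the ENT-BDL median of 21.3 in every pig, and was lower by a log2 fold change of -0.79 ± 0.16 (SE, edgeR adjusted p = 0.000228). CENPF, at 9.14 to 31.4 CPM with a median of 23.7 in SLE-BDL and 23.4 to 53.2 CPM with a median of 36.5 in ENT-BDL, was lower by -0.71 ± 0.17 (SE, edgeR adjusted p = 0.00168). TOP2A, at 17.4 to 57.1 CPM with a median of 48.1 in SLE-BDL and 40.4 to 114 CPM with a median of 68.6 in ENT-BDL, was lower by -0.58 ± 0.14 (SE, edgeR adjusted p = 0.00283). Each of these 3 genes was lower in SLE-BDL within 5 of 5 identifier numbers.

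NUSAP1, KIF23, KIF20A, KIF11, BUB1B, and PLK1 fell as well, by 0.43 to 0.48 on the log2 scale. With the groups compared only, KIF20A (edgeR adjusted p = 0.0533), KIF11 (0.0548), BUB1B (0.0862), and PLK1 (0.0957) did not pass. BUB1B and PLK1 each passed in 9 of the 21 fits that left out an SLE-BDL or ENT-BDL pig. Among the G1 regulators, CCNE2 ranged from 1.07 to 5.12 CPM with a median of 4.19 in SLE-BDL and from 3.64 to 7.44 CPM with a median of 5.69 in ENT-BDL and was lower by a log2 fold change of -0.61 ± 0.17 (SE, edgeR adjusted p = 0.00597). CCND1 went the other way, at 50 to 85.4 CPM with a median of 69.8 in ENT-BDL and 66.3 to 111 CPM with a median of 85.1 in SLE-BDL, a log2 fold change of 0.32 ± 0.12 (SE, edgeR adjusted p = 0.0479). MKI67 (-0.38 ± 0.17, adjusted p = 0.102) and PCNA (0.04 ± 0.11, adjusted p = 0.828) did not pass. Without SLE-BDL replicate 7, 8 members fell and 1 rose with a G2/M median of -0.32. Without ENT-BDL replicate 1, a near-matching library, 14 fell and 1 rose, and without both near-matching libraries 15 members passed, CCND1 no longer among them (adjusted p = 0.0746). With the identifier number as a block CCNB2 (adjusted p = 0.0255), CDK1 (0.0461), and TPX2 (0.0214) passed as well, and CCNA2 (0.0345) and BUB1 (0.0455) did when those libraries were also left out. CCND1 did not pass with the block (0.22, adjusted p = 0.159), and it passed in 6 of the 21 fits that left out a pig of these groups.

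Between MLE-BDL and ENT-BDL, CDKN1A and MCM6 rose and NUSAP1 fell, where 8.53% of tested genes were higher, 8.27% lower, and 3.18% past a fold of 2, and 2.21% did not overlap. Both counts were again below the background. MCM6 ranged from 41.9 to 81.3 CPM with a median of 60.2 in MLE-BDL against 30.5 to 61.4 CPM with a median of 49.3 in ENT-BDL (log2 fold change 0.35 ± 0.13, SE, edgeR adjusted p = 0.0467). NUSAP1 ranged from 22.3 to 31.6 CPM with a median of 28 in MLE-BDL against 24.3 to 47.1 CPM with a median of 33.2 in ENT-BDL (log2 fold change -0.31 ± 0.09, SE, edgeR adjusted p = 0.0157). With the identifier number as a block CDKN1A alone passed. MCM6 missed the threshold without both near-matching libraries (adjusted p = 0.0951) and by DESeq2, and passed in 5 of the 18 fits that left out a pig of these groups. Without those libraries CCNE2 (adjusted p = 0.0326), CENPF (0.0365), and BIRC5 (0.0475) were lower in MLE-BDL. MKI67 was at 0.04 ± 0.18 (adjusted p = 0.928), PCNA at 0.15 ± 0.12 (adjusted p = 0.425), and CCND1 at 0.32 ± 0.13 (adjusted p = 0.0798) on the log2 scale. The G2/M median was -0.15, and 5 members passed without ENT-BDL replicate 1 and 2 without MLE-BDL replicate 1.

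Between the 2 lipid emulsions no member passed, either in sham pigs (edgeR and DESeq2, 2 members at an unadjusted p under 0.05) or after BDL (edgeR and DESeq2, 8 members). Few genes of any kind differed, 0.37% higher, 0.629% lower, and 0.463% past a fold of 2 in MLE-sham, and 0.216% higher, 0.691% lower, and 0.37% past a fold of 2 in MLE-BDL. All 21 G2/M genes and all 9 S-phase genes lay above 0 in MLE-BDL against SLE-BDL, with medians of 0.28 and 0.21. KIF23 was nearest the threshold among those named, at 0.40 ± 0.14 on the log2 scale (SE, edgeR adjusted p = 0.167), and MKI67 was at 0.42 ± 0.18 (SE, edgeR adjusted p = 0.281). Without SLE-BDL replicate 7 the G2/M median was 0.19. CDKN1A was at -0.24 ± 0.19 in the sham groups (adjusted p = 0.717) and at -0.34 ± 0.19 after BDL (adjusted p = 0.466).

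**Figure D5:**
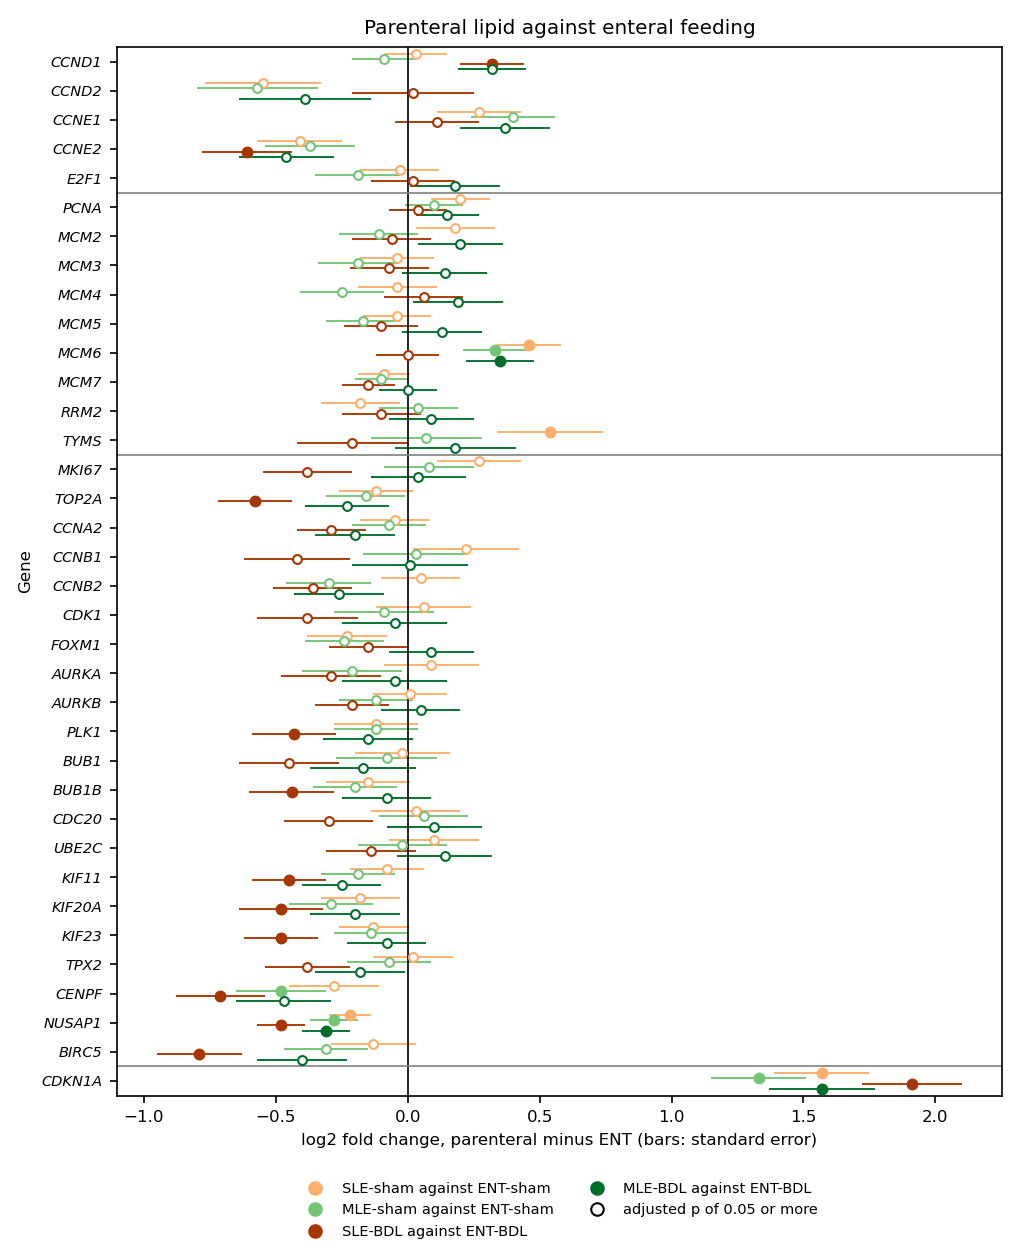
Log2 fold change (horizontal axis, with SE) of each member in SLE and MLE against ENT pigs, for sham and for BDL groups, with filled points where the adjusted p was under 0.05. CDKN1A lies between 1.33 and 1.91 in all 4 comparisons, and the G2/M genes lie left of 0 in SLE-BDL against ENT-BDL.

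The same comparisons were made on cell cycle genes outside the set. Of 56 other G2/M genes 16 rose in ENT-BDL (median log2 fold change 0.33), 25 in MLE-BDL (0.45), and 0 in SLE-BDL (0.04), none of the 56 at an unadjusted p under 0.05 in the last, and none fell. Of all tested genes 8.89%, 7.85%, and 2.97% were higher in these comparisons, and 8.53%, 6.58%, and 1.57% were lower. SPC24, a kinetochore subunit, rose by 0.94 ± 0.23 (SE, edgeR adjusted p = 0.00263) and MELK, a mitotic kinase, by 0.64 ± 0.16 (SE, edgeR adjusted p = 0.00342) in ENT pigs. In MLE pigs MELK rose by 0.77 ± 0.19 (SE, edgeR adjusted p = 0.00268) and STMN1, which destabilizes microtubules, by 0.65 ± 0.15 (SE, edgeR adjusted p = 0.00156). Between SLE-BDL and ENT-BDL 16 of the 56 fell and 0 rose, led by ASPM (-0.69) and KIF14 (-0.60), where 9.17% of all tested genes were lower. In MLE-BDL 1 gene, HJURP, was lower than in ENT-BDL (-0.79), against 8.27% of all tested genes, which is no result about this list. The interaction of SLE against ENT passed for PRC1, a bundler of the central spindle (-0.64 ± 0.18, SE, edgeR adjusted p = 0.0454), where 2.33% of all tested genes passed. In sham pigs CKS2 (0.45) and PRC1 (0.34) rose in SLE, and 5 of the 56 fell in MLE, led by HJURP (-0.72) and NUF2 (-0.59). Both counts were below the share of all tested genes, 13.9% higher in SLE-sham and 10.4% lower in MLE-sham, and are no result about this list.

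Of 40 other G1/S genes, BDL was accompanied by 2 rises and 2 falls in ENT pigs, none in SLE pigs (1 at an unadjusted p under 0.05), and 8 rises in MLE pigs, with median log2 fold changes of 0.08, 0.0, and 0.22. Beside the share of all tested genes (8.89% higher and 8.53% lower in ENT pigs, 7.85% higher in MLE pigs), the counts in ENT pigs were below the background and are no result about this list, and the 8 of 40 in MLE pigs were above it. DBF4 (0.29) and RPA2 (0.30) rose and SLBP (-0.22) and RFC5 (-0.20) fell in ENT pigs, and TIPIN (0.41) and ORC1 (0.60) were the rises in MLE pigs with the smallest p. RRM1, the large subunit of the same reductase as RRM2, and the ligase gene LIG1 fell in all 4 comparisons of PN with ENT pigs, RRM1 by 0.26 to 0.43 and LIG1 by 0.25 to 0.36 on the log2 scale. Of the 40 genes, 2 rose and 4 fell in SLE-sham, 0 rose and 5 fell in MLE-sham, 1 rose and 6 fell in SLE-BDL, and 5 rose and 3 fell in MLE-BDL against ENT pigs. Of all tested genes 13.6%, 10.4%, 9.17%, and 8.27% were lower in these comparisons and 13.9%, 10.7%, 10.4%, and 8.53% higher.

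Among regulators outside the set, CDKN1B, which encodes the inhibitor p27, fell in all 4 comparisons of PN with ENT pigs, with log2 fold changes of -0.71 and -0.46 in SLE-sham and MLE-sham and -0.77 and -0.75 in SLE-BDL and MLE-BDL. RBL2, a pocket protein of quiescent cells, fell in the same 4 comparisons (-0.63, -0.43, -0.46, and -0.51). GADD45A, a growth arrest and DNA damage gene, was higher in all 4 by 0.95, 0.77, 0.47, and 0.56. MDM2, which encodes a ubiquitin ligase, and CCNG1, which encodes cyclin G1, passed in none of the 9 comparisons. Of the 28 regulators tested, 7 rose and 6 fell in SLE-sham and 5 rose and 6 fell in MLE-sham against ENT-sham, and 6 rose and 5 fell in SLE-BDL and 4 rose and 3 fell in MLE-BDL against ENT-BDL. Of all tested genes 13.9% were higher and 13.6% lower in SLE-sham, 10.7% and 10.4% in MLE-sham, 10.4% and 9.17% in SLE-BDL, and 8.53% and 8.27% in MLE-BDL. With BDL, GADD45B rose on each diet, with log2 fold changes of 0.73, 1.17, and 1.10 for ENT, SLE, and MLE pigs, and CCND3, a D cyclin, rose in ENT (0.43) and SLE (0.43) pigs. WEE1, the kinase that restrains CDK1, rose in MLE-BDL against both MLE-sham (0.68) and SLE-BDL (0.64).

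Markers of other cells were measured in the same libraries. As background, BDL raised 8.89% of all tested genes in ENT pigs, 2.97% in SLE pigs, and 7.85% in MLE pigs, and lowered 8.53%, 1.57%, and 6.58%. With BDL, 6 of 8 tested cholangiocyte markers rose in ENT, 7 in MLE, and 1 in SLE pigs, with median log2 fold changes of 1.33, 1.5, and 0.67. Their summed level was 62.4 to 557 CPM in ENT-sham (up to 96.4 without the library labelled replicate 2) and 274 to 540 in ENT-BDL, 91 to 146 in MLE-sham and 217 to 400 in MLE-BDL, while the medians were 210 in SLE-sham and 304 in SLE-BDL. Hepatocyte markers fell in 5 of 9 in ENT, 6 in MLE, and 0 in SLE pigs (4 at an unadjusted p under 0.05), and 1, TF, rose in ENT pigs. The hepatocyte sum had medians of 121932 CPM in ENT-sham and 95650 in ENT-BDL, 117218 and 84411 in the MLE groups, and 108177 and 112309 in the SLE groups. Of 8 stellate and myofibroblast markers 1 rose and 1 fell in ENT, 2 rose in SLE, and 2 rose and 1 fell in MLE pigs, and the counts in ENT pigs were near the share of all genes. Their summed level had medians of 1259 and 2392 CPM in the ENT, 1757 and 2031 in the SLE, and 1561 and 3493 in the MLE groups, sham first. Of 9 myeloid markers 2 rose on each diet and CD14 fell in ENT and MLE pigs. The myeloid sum lay lower with BDL, with medians of 1097 and 876 CPM in the ENT, 874 and 848 in the SLE, and 894 and 728 in the MLE groups. Of 12 erythroid markers none passed with BDL in ENT or SLE pigs, nor at an unadjusted p under 0.05, and 1 fell in MLE pigs. Against ENT-BDL 5 erythroid markers fell in MLE-BDL, where 8.27% of all tested genes did. Of 8 tested lymphocyte markers 2 fell in SLE-BDL against ENT-BDL, where 9.17% of all tested genes did, and with BDL none passed in SLE pigs (5 at an unadjusted p under 0.05) and 1 fell in MLE pigs. Of 6 endothelial markers 1 fell with BDL in ENT pigs. No marker had a group median under 0.1 CPM. The part of these cells in the cell cycle results was not tested.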

How the data were processed

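Liver poly(A) RNA of 60 pigs was sequenced with paired ends from NEBNext Ultra libraries. The authors trimmed reads with fastp, aligned them to Sscrofa11.1 with HISAT2 2.0.5, and deposited gene counts from featureCounts 1.5.0-p3 without normalization. StringTie 1.3.3 is also named in the submitters' processing notes. Of 30359 features, 24 without a gene name (0.008% to 0.041% of a library's counts) were left out. Groups came from the diet and surgery labels.

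In R 4.3.3, edgeR 4.0.16 was run with filterByExpr, TMM, estimateDisp, robust glmQLFit, and glmQLFTest on 1 model of all 60 pigs, with Benjamini-Hochberg adjustment over 16210 genes. Genes passed at an adjusted p under 0.05. The study's own call, made with DESeq2, adds a fold above 2. CPM used TMM library sizes, and SE is the log2 fold change over the root of F. Correlations between pigs used log2 CPM with a prior count of 2, whereas the heat map and the medians within a pig used log2 of plain CPM. Alternatives were DESeq2 1.42.0, the groups compared only, RLE size factors, no filter, 10 counts in every pig, a replicate block, an identifier block, both near-matching libraries left out, and each pig left out. The block together with those libraries left out was added after the data were seen. The tests were tried on simulated data. Summaries and figures used Python 3.11.15 with numpy 2.4.6, pandas 2.3.3, and matplotlib 3.10.9.

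Members and lists were chosen with earlier results of these data known. All 36 members are named. In each role and comparison up to 3 members that passed with the largest change have full statistics, as do MKI67, PCNA, CCND1, and CDKN1A, and other lists are given by counts with up to 2 genes a direction. RRM2, KIF23 in SLE pigs, AURKB, and the regulators GADD45B, MDM2, and CCNG1 are shown beyond that rule, after their values were seen. Promoter sequences were not used here, and CDKN2A was not analysed here.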

Additional observations from a re-analysis of the deposited data

Results flagged for a closer look

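In groups of 4 to 10 pigs, 21 levels of 20 genes stood apart from the other pigs of their group by Dixon's test, of 144 gene and group pairs examined. Chance does so in about 1 in 20 groups, and values of 1 pig are not independent. ENT-sham and SLE-BDL, with more than 10 pigs, were not examined.

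MLE-BDL replicate 1 was the high pig in 15 of them. Among S-phase genes it had 104 CPM of TYMS, where the next pig had 54.4, and 52.2 CPM of MCM3, where the next had 32.5. Its other S-phase levels were 52.4 CPM for PCNA, 62.3 for MCM2, 80.1 for MCM4, 51.5 for MCM5, 120.0 for MCM7, and 90.1 for RRM2. Among G2/M genes it had 32.9 CPM of CCNB1 and 154 CPM of MKI67, where the next had 112. Its levels were 12.1 CPM for CCNB2, 27.9 for CDK1, 17.7 for BUB1, 33.8 for CDC20, and 48.0 for TPX2. Thus the pig stood apart in genes of both phases.

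SLE-sham replicate 1 stood apart in G2/M genes, with 16.2 CPM of CCNA2, 22.3 of CDK1, 19.2 of PLK1, and 17.8 of UBE2C. ENT-BDL replicate 4 had 114 CPM of TOP2A, where the next pig had 75.9. SLE-sham replicate 6 had 121 CPM of CDKN1A, where the next pig had 79.8. The causes were not tested.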

How the results depend on the processing

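CDKN1A kept its direction and its call in all 4 comparisons of PN with ENT pigs under every alternative, and no passed gene reversed its sign under any. Of 40 gene and comparison pairs that passed, 19 passed in all 60 fits without 1 pig. The cause of the changes below was not tested.

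With BDL in ENT pigs, 12 members passed, against 8 with the groups compared only, 6 without the filter, 3 with the replicate block, 0 with a fold above 2, and 5 to 15 without 1 pig. In SLE pigs 0 passed, against 1 with the replicate block, 1 with the identifier block, 1 with that block and both near-matching libraries left out, and 0 to 1 without 1 pig. In MLE pigs 5 passed, against 10 with the groups compared only, 2 without the filter, 0 with a fold above 2, and 2 to 8 without 1 pig, with 2 or 3 also without any 1 of 25 pigs of other diets. In SLE-sham against ENT-sham 4 passed, against 2 without the filter, 1 with a fold above 2, and 2 to 5 without 1 pig. In MLE-sham against ENT-sham 4 passed, against 2 without the filter, 1 with a fold above 2, 1 with the identifier block, 1 with that block and both libraries left out, and 2 to 5 without 1 pig. In SLE-BDL against ENT-BDL 12 passed, against 7 with the groups compared only, 1 with a fold above 2, and 9 to 15 without 1 pig. In MLE-BDL against ENT-BDL 3 passed, against 1 with a fold above 2, 1 with the identifier block, 5 with both libraries left out, 1 with both changes, and 2 to 5 without 1 pig. For the interactions 0 passed, against 2 (SLE and ENT) and 1 (MLE and SLE) with the identifier block and 3 and 1 with both libraries left out as well.

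Replicate numbers did not pair the pigs, whose deviations correlated at -0.231 to 0.381 (median -0.011) over 82 same-numbered pairs. The replicate block left BIRC5, KIF23, and TOP2A in ENT pigs, called TYMS in SLE pigs, and gave 7 calls in MLE pigs. Depth limited CCND2 most, with 10 counts in its lowest library.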
